A study of Mus musculus with 12 samples.

Results

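The 70 genes described here carry the symbols of gene families best known from motile cilia, although some of them have no part in the axoneme. The rule took symbols that begin with Dnah, Dnaic, Cfap, Tekt, Rsph or Spag followed by a number, and added Foxj1, which gave 70 of 44930 genes in the table. The rule reads symbols and no measured value, and the choice of these families was made with earlier results of these data known. The Cfap names made up 26 of the 70, Dnah 16, Spag 12, Rsph 8, Tekt 5 and Dnaic 2. A value of 10 or more in 6 or more animals was reached by 64 of the 70, and these 64 are the tested members. Total RNA, depleted of ribosomal RNA, was sequenced from dissected olfactory mucosa of 12 male mice. The groups were 6 wildtype mice and 6 mice in which the class I odorant receptor enhancer eB had been deleted. In both groups the strain was 129S6;C57BL/6J and the age was postnatal day 30. The deletion removed 1155 bp at chr7:102847692-102848846, and no cell type restriction or second allele is given for it. Levels are normalized counts, that is reads per gene divided by 1 factor per library.

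Motile cilia are beating, hair-like organelles built on an axoneme of microtubule doublets around a central pair. Outer dynein arms supply most of the force of the beat and inner arms shape its waveform. Radial spokes and the central apparatus pass signals to the arms, while tektins lie inside the doublet walls. Foxj1 is the transcription factor that switches on the genes of this programme, together with factors of the RFX family. In the nose, ciliated cells of the respiratory epithelium carry such cilia and move mucus, whereas the cilia of olfactory sensory neurons carry odorant receptors, have no dynein arms in mammals and do not beat. The mucosa was not sorted, so a lower level can come from fewer cells of a type or from less RNA per cell, which cannot be told apart in bulk samples.

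The tissue label and the name of the gene set were checked against marker lists. Of 9 ciliated cell markers, 8 were in the table and all 8 were tested, led by Tubb4b, a tubulin of cilia, at a mean of 12965 normalized counts, and Mlf1 at 2283. The lowest ciliated cell marker was Cdhr4, at 99.3. The mature olfactory neuron marker Omp stood at 63952 and the sustentacular cell marker Cyp2a5 at 130417, so the libraries held both epithelia. Levels within a list were uneven: Ugt2a1, also on the sustentacular list, was at 8.33 and was not tested. Among the respiratory secretory markers Bpifa1 was at 75262, but Scgb1a1, a defining marker of club cells in the lung, was at 0.76. Libraries held between 13152662 and 23059835 reads on genes. One library stood apart: wildtype 2 had 11.02% of its reads on the predicted gene Gm10800, followed by eB deletion 4 with 2.38%, eB deletion 1 with 0.55% and wildtype 5 with 0.33%, while the other 8 libraries each had less than 0.1%. Reads fell on 42505 genes in wildtype 2 and on 39082 in eB deletion 4, against 29229 to 33674 in the other libraries. Results that rest on these libraries are given with and without them.

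Levels differed between members by more than 100-fold. Per kb of exon, which allows genes of unequal length to be compared, the tested members had a median of 81.6 normalized counts against 65.4 for all 19100 tested genes. The length is that of all annotated exons of a gene together, so the number of annotated exons can shift a gene's rank. A level above 100 per kb was found for 26 of the 69 members with a known exon length, and a level below 10 per kb for 10. By summed normalized counts, without regard to length, Cfap69, Spag9 and Dnah5 together made up 30.05% of the total of the members. The plot of levels per kb in every animal shows this order within each family.

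**Figure D1:**
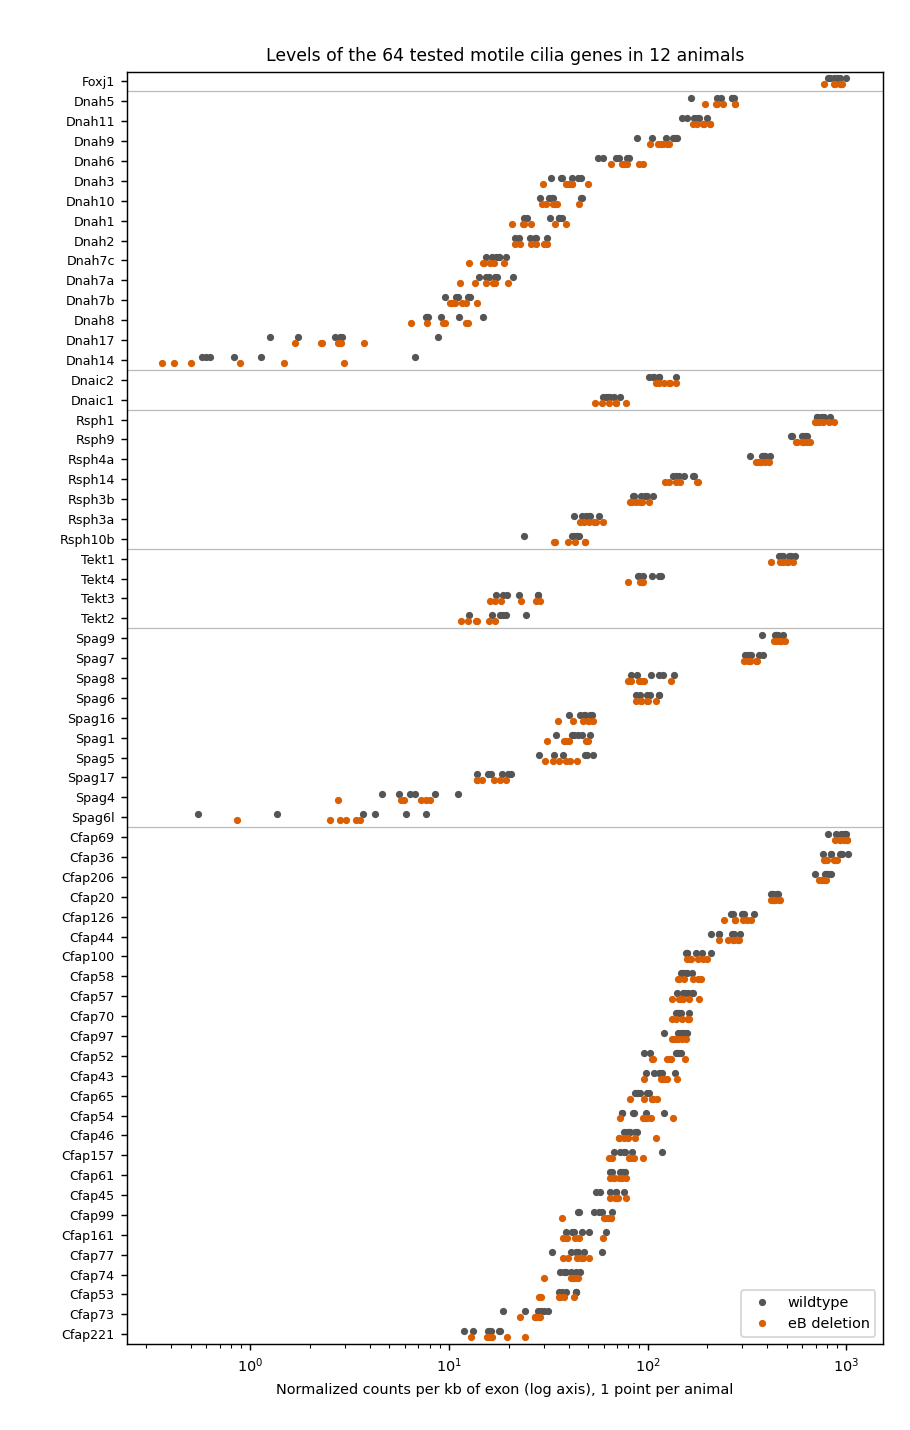
Normalized counts per kb of exon (log axis) of the 64 tested members, 1 point per animal, wildtype in grey above eB deletion in orange, grouped by family and ordered by mean. The 2 colours overlap in every row, and wildtype 2 is the separate grey point at the right of the Dnah14 and Dnah17 rows.

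Foxj1 (chr11:116330704-116335399 in GRCm38) was among the highest members, at 888 per kb. Its normalized counts were 2123 at the lowest, 2315 at the median and 2610 at the highest in wildtype animals, and 2018, 2361 and 2489 in eB deletion animals. The groups overlapped, with the highest value in wildtype 3 and the lowest in eB deletion 2. The difference on the log2(value + 1) scale, eB deletion minus wildtype, was -0.002 ± 0.063 (SE; limma-trend, Benjamini-Hochberg adjusted p = 0.999), and its 95% interval ran from 0.91-fold to 1.09-fold.

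The outer dynein arm is built on heavy chains, the motor subunits, and intermediate chains that help anchor them. The heavy chains Dnah5 (238 per kb), Dnah11 (181 per kb) and Dnah9 (119 per kb) stood above every inner arm heavy chain. Dnah5 (chr15:28203752-28472052) had 2596, 3899 and 4264 normalized counts at the lowest, median and highest in wildtype, and 3045, 3604 and 4295 in eB deletion animals. Dnah9 (chr11:65831282-66168551) had 1414, 2050 and 2230 in wildtype, and 1647, 1876 and 2032 in eB deletion animals. For both genes the lowest animal of all 12 was wildtype 2, the lowest of the deletion group was eB deletion 6, and the groups overlapped. The log2 difference was 0.01 ± 0.11 (SE) for Dnah5 and -0.03 ± 0.10 (SE) for Dnah9. Dnah11 (chr12:117877982-118199043), which in human airway cilia lies near the base, had 2146, 2526 and 2877 normalized counts in wildtype, and 2448, 2763 and 2977 in eB deletion animals. Its log2 difference was 0.14 ± 0.07 (SE; limma-trend, adjusted p = 0.882), with 5 of 6 deletion animals above the wildtype mean. Dnaic2 and Dnaic1, the intermediate chains, stood at 119 and 65.2 per kb, with log2 differences of 0.12 ± 0.08 and 0.01 ± 0.09 (SE).

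Dnah8 and Dnah17 are the sperm counterparts of outer arm heavy chains, and both were low, at 9.68 and 2.98 per kb. No stretch of 50 bases was shared between the transcripts of Dnah5 and Dnah8, or among those of Dnah9, Dnah11 and Dnah17. Dnah8 had 207, 227 and 397 normalized counts in wildtype, and 173, 253 and 336 in eB deletion animals. The highest animals were wildtype 2 and eB deletion 4.

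The inner arm heavy chains that were tested ranged from 11.5 per kb for Dnah7b to 74.6 per kb for Dnah6. Dnah6 (chr6:73017606-73221651) had 747, 930 and 1064 normalized counts in wildtype, and 870, 1027 and 1250 in eB deletion animals. The groups overlapped, but 5 of 6 deletion animals lay above the wildtype mean. Its log2 difference of 0.21 ± 0.10 (SE) was the highest of the 64, with an unadjusted p of 0.0506 and an adjusted p of 0.878 (limma-trend). Over all alternative fits it ranged from 0.11 to 0.26. Dnah7a, Dnah7b and Dnah7c are near copies: 38.6%, 29.6% and 46.8% of the 50-base stretches of their transcripts occurred in another of them. The authors' counting could therefore split or drop their reads, and their levels of 207, 230 and 208 normalized counts are uncertain. Among these copies Dnah7b had the most counts but the lowest level per kb, so its rank rests on its annotated exon length. The row named Dnah12, an inner arm heavy chain, held between 0 and 1.48 normalized counts and was not tested. Its identifier was not matched in the annotation used here, so it has no level per kb. Whether reads of this gene were counted under another row is not known, so the value does not show that the gene was silent. Dnah14, a heavy chain with no assigned arm, was the lowest tested member at 1.42 per kb, or 0.94 without wildtype 2 and 0.64 in the 8 libraries below 0.1% of reads on Gm10800.

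The 7 tested radial spoke genes spanned 40.7 per kb for Rsph10b to 759 for Rsph1. Rsph1 stood at 759 per kb, Rsph9 at 596 and Rsph4a at 377, and these encode proteins of the spoke head. Rsph3a stood at 50.8, Rsph3b at 92 and Rsph14 at 149.9 per kb. Rsph1 had 971, 1036 and 1136 normalized counts at the lowest, median and highest in wildtype, and 958, 1019 and 1192 in eB deletion animals. Rsph4a had 1200, 1399 and 1512 in wildtype, and 1287, 1350 and 1496 in eB deletion animals. The median SD between animals, within groups, was 0.12 on the log2 scale for the 7 tested radial spoke genes, against 0.17 for all tested members and 0.17 for all tested genes. Rsph10b had the highest SD of the 7 at 0.30, with its lowest value in wildtype 2, and 0.17 in the 8 libraries below 0.1% of reads on Gm10800. Rsph3a and Rsph3b, which encode a spoke protein, are near copies with 54.4% and 54.3% of their 50-base stretches shared, and their levels of 153 and 286 normalized counts are likewise uncertain. Rsph6a, the sperm counterpart of Rsph4a, had a mean of 5.07 normalized counts, or 2.26 in those 8 libraries, and was not tested.

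Among the central apparatus genes, the row named Spag6 stood at 99.1 per kb, Spag16 at 47.02 and Spag17 at 16.8. The names of 2 rows need care: the row named Spag6 carries the identifier of the gene at chr16:16753016-16829456, which GENCODE names Spag6l, and the row named Spag6l, at 3.31 per kb, carries that of the gene at chr2:18694032-18750413, which GENCODE names Spag6. The row names are kept here. Only 0.39% and 0.53% of the 50-base stretches of these genes were shared. Tektins spanned a wide range, from 492 per kb for Tekt1 over 96.3 for Tekt4 to 16.2 for Tekt2, and Tekt5, known from sperm, stood at 2.63 per kb and was not tested.

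The 26 Cfap genes, cilia and flagella associated proteins of many positions in the axoneme, were all tested and ranged from 16.5 to 942 per kb. Cfap69 (chr5:5579278-5664239), whose protein is also found in the cilia of olfactory sensory neurons and in sperm, was the highest member. It had 6384, 7532 and 7902 normalized counts in wildtype, and 6951, 7495 and 7999 in eB deletion animals. The groups overlapped, and the log2 difference was 0.03 ± 0.06 (SE). Cfap36 stood at 860 per kb, Cfap206, of the radial spoke base, at 774 and Cfap20, an inner junction protein found in motile and immotile cilia, at 437. Cfap43 and Cfap44, which tether an inner arm dynein, stood at 118 and 257 per kb.

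The Spag names, sperm associated antigens, also took in genes without a part in the axoneme. Spag9, a scaffold of JNK signalling, stood at 449 per kb and Spag7 at 334, while Spag5, a protein of the mitotic spindle, stood at 39.4. Spag1, needed to assemble dynein arms, stood at 42.3 per kb. Spag11b, a defensin-like gene of the epididymis, and the antisense RNAs Spag17os and Dnah2os fitted the rule by symbol and were not tested. Spag17os shared 11.7% and Dnah2os 36.3% of exon bases with the gene on the other strand. The strand setting of the counting is not given in the sources used here, so reads of such overlapping pairs may not be told apart. The same holds for Dnah3, which shared 10.53% of its exon bases with Lyrm1, and for Spag17, which shared 9.66% with Wdr3. Tekt2 shared 20.8% with Gm12945, but that gene had a mean of only 0.29 normalized counts. Among low members, Dnah14 shared 2.71% with Lbr, at 858 normalized counts, and Cfap73 shared 8.47% with Ddx54, at 492.

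Promoters of the members were searched for the letters that factors of this programme bind. RFX factors bind the X-box, whose core was searched as GTTGCC on both strands (GGCAAC on the other). Of the 70 members, 55 matched a RefSeq promoter (GRCm38.p6) by symbol and 50 also by position, giving 55 promoters. In the 250 bases before the start, 16 of these 55 promoters (29.1%) held the core, against 3425 of 32851 promoters (10.4%) in the whole RefSeq table. The forkhead letters GTAAACA, or TGTTTAC on the other strand, stood in 3 of 55 (5.45%) and in 3.17% of the whole table. The motifs do not overlap in letters, a match is a description of the sequence, and no binding was measured. The windows below are from the 7 genes with a match whose window lay outside annotated exons, 1 window per gene, with every match to the core in capitals. The windows are at chr8:95434911-95435010 on the reverse strand for Cfap20, chr16:44394623-44394722 on the forward strand for Cfap44, chr1:53706932-53707031 on the reverse strand for Dnah7a, chr1:46425268-46425351 on the forward strand for Dnah7c, chr1:69826812-69826911 on the forward strand for Spag16, chr11:72361883-72361944 on the reverse strand for Tekt1 and chr4:126325732-126325831 on the reverse strand for Tekt2.
Cfap20: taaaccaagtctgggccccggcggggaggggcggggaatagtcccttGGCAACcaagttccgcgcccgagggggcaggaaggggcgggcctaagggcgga
Cfap44: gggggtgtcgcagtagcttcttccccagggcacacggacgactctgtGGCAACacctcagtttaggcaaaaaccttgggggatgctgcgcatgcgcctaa
Dnah7a: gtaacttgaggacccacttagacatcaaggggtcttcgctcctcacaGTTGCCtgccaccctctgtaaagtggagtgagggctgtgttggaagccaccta
Dnah7c: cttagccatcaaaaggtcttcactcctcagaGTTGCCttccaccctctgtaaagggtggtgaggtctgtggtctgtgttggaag
Spag16: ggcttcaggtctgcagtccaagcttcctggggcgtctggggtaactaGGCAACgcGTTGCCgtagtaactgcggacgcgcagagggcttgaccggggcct
Tekt1: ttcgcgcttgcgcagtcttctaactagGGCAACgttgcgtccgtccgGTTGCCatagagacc
Tekt2: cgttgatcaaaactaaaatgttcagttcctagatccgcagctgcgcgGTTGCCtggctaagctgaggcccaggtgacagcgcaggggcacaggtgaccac
The start of Tekt1 is that of RefSeq, and its window lies within the longer Tekt1 gene of GENCODE. Spag16 and Tekt1 each carried the core on both strands within the window shown. The Dnah7a and Dnah7c windows are alike around the match, as are the transcripts of these near copies.

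The eB deletion was then compared with wildtype for each member in 1 fit over all 19100 tested genes. No tested member was called at an adjusted p under 0.05 (0 of 64; limma-trend, Benjamini-Hochberg over all tested genes), and no gene of the whole table was either (0%). On the recovered reads, edgeR called 0 of the 64 members and 0 of all 19100 genes, and DESeq2 called 0 of the 64 and 8 of all 19100. An unadjusted p under 0.05 was reached by 0 of 64 members, against 5.64% of all tested genes. Values of the groups did not overlap for 0 of 64 members, against 0.293% of all tested genes. The members' log2 differences had a median of -0.02, against 0.004 for all tested genes, with 25 members higher and 39 lower in eB deletion animals. They ran from -0.35 for Tekt2 to 0.21 for Dnah6, with adjusted p between 0.878 and 0.999 (limma-trend). The count at an unadjusted p under 0.05 was 4 without eB deletion 3, 3 without wildtype 6 or without eB deletion 5, 2 without wildtype 3, and 1 without wildtype 4, wildtype 5, eB deletion 1 or eB deletion 6. In the same fits the share of all tested genes was 5.04% without eB deletion 3, 5.68% without wildtype 6, 5.23% without eB deletion 5 and 5.14% without wildtype 3, against 6.25%, 4.69%, 4.69% and 3.12% of the members. For the fits with a count of 1, or 1.56% of the members, it lay between 4.79% and 6.62%. The members' shares were thus near or below that of all genes.

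**Figure D2:**
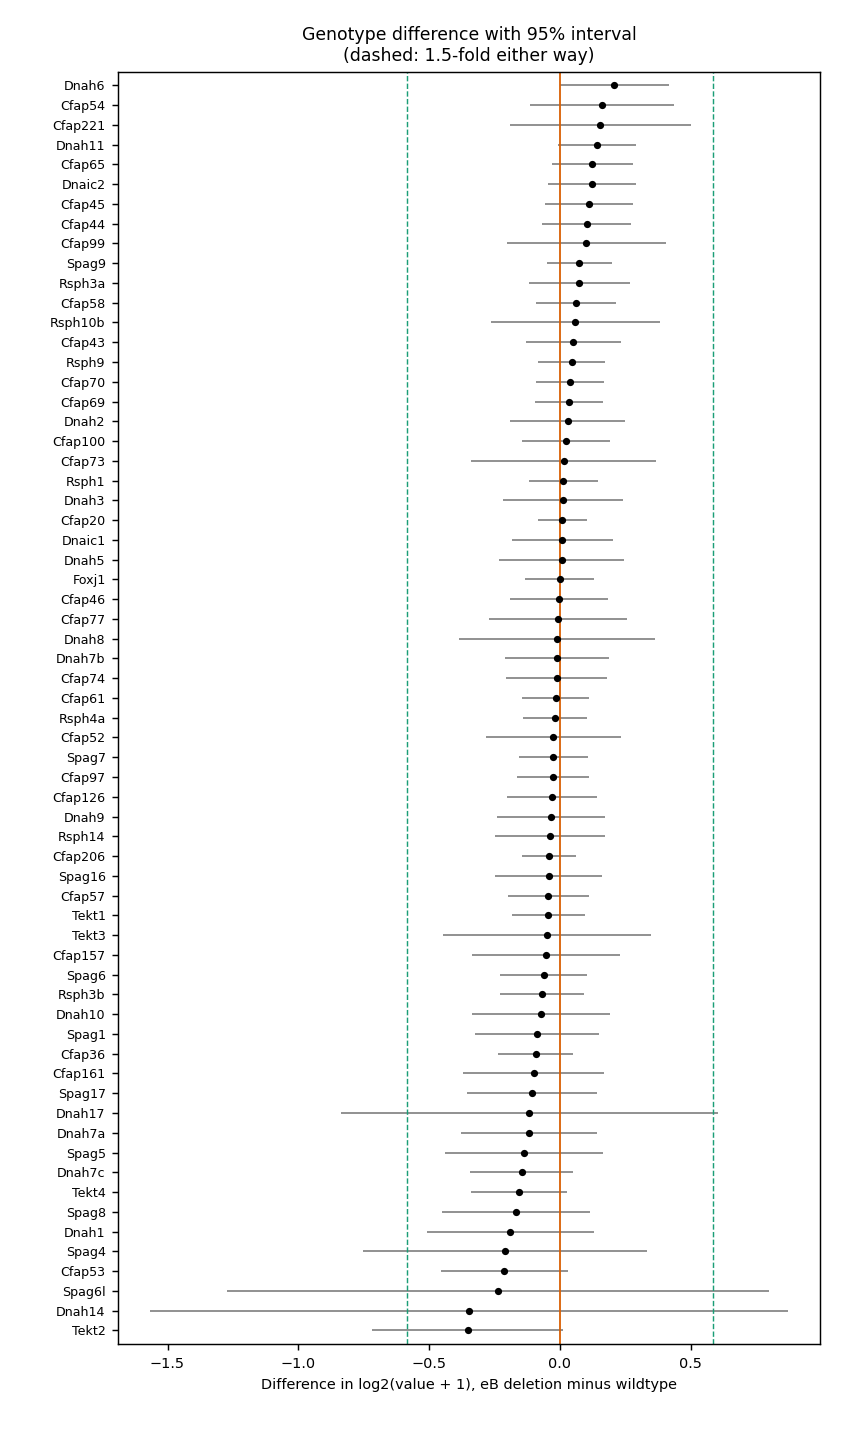
Difference in log2(value + 1), eB deletion minus wildtype, for the 64 tested members, with points for the estimate and bars for the 95% interval, ordered by size. Dashed lines mark 1.5-fold either way, and the bars of 59 members stay between them.

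The intervals show how large a difference these 12 animals leave possible. The 95% interval stayed within 1.25-fold either way for 39 members, within 1.5-fold for 59 and within 2-fold for 62. The widest intervals belonged to low members: Dnah14 ran from 0.34-fold to 1.83-fold and the row named Spag6l from 0.41-fold to 1.74-fold. Without wildtype 2 the log2 differences of Dnah14, the row named Spag6l and Dnah17 turned from -0.35, -0.24 and -0.12 to 0.17, 0.02 and 0.21, so no direction is read from them. The plot of differences with their intervals shows them at the bottom.

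The members nearest to the threshold are given as values. Tekt2 (chr4:126322121-126325688) had 24.1, 35.0 and 46.2 normalized counts at the lowest, median and highest in wildtype, and 21.9, 26.0 and 32.5 in eB deletion animals. The groups overlapped, the highest animal was wildtype 2, and all 6 deletion animals lay below the wildtype mean. Its log2 difference was -0.35 ± 0.17 (SE; limma-trend, unadjusted p = 0.0568, adjusted p = 0.882). It ranged from -0.45 to -0.27 when each animal was left out in turn, and from -0.37 to -0.15 under the other alternatives. Tekt4, another tektin, had 179, 199 and 234 in wildtype, and 159, 186 and 189 in eB deletion animals, a log2 difference of -0.16 ± 0.09 (SE). Cfap53, a protein inside the doublet walls that is needed for left-right patterning, had 92.98, 107 and 113 in wildtype, and 73.6, 93.7 and 111 in eB deletion animals, a log2 difference of -0.21 ± 0.11 (SE). In the other direction, Cfap65, needed for sperm tails, had 671, 705 and 789 in wildtype, and 634, 822 and 870 in eB deletion animals, a log2 difference of 0.12 ± 0.07 (SE). Over all alternative fits Tekt4 ranged from -0.19 to -0.12, Cfap53 from -0.28 to -0.15 and Cfap65 from 0.04 to 0.18. None of these differences passed the test.

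By role, the tested members of each group were divided as follows. Of 8 tested inner arm heavy chains, 3 were higher and 5 lower in eB deletion animals. Of 3 outer arm heavy chains 2 were higher, and both intermediate chains were. Of 7 radial spoke genes 4 were higher. All 4 tested tektins were lower, with a median of -0.10, but Tekt3 changed sign in 4 alternative fits. The 4 central apparatus genes among the members were lower, with a median of -0.09. They include the row named Spag6l, which turned from -0.24 to 0.02 without wildtype 2. Of 5 other central apparatus genes (Spef1, Stk36, Ak7, Hydin and Spef2) 4 were higher and 1 lower, with a median of 0.004. Of the Cfap genes, 13 of 26 were higher and 13 lower, with a median of 0.003. Of 5 other tested Spag genes 1 was higher and 4 lower, with a median of -0.14. Both sperm counterparts of outer arm heavy chains were lower, with a median of -0.06, as were Spag1, Dnah14 and Foxj1. Without wildtype 2, Dnah14 and Dnah17 turned to 0.17 and 0.21. These directions are those of the reported fit, and members near 0, such as Dnah5 and Dnaic1, changed sign in some alternative fits. No member of any role had an unadjusted p under 0.05 in the reported fit.

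Other genes of the axoneme and its programme were taken from 6 lists with 48 genes, of which 44 were tested. None was called (0 of 44, limma-trend). An unadjusted p under 0.05 was found for 1 gene, and 20 were higher and 24 lower, with a median of -0.01. The gene under 0.05 was Wdr63, an inner arm intermediate chain, at 568 ± 40.2 normalized counts (SD, n = 6) in wildtype and 699 ± 131 (SD, n = 6) in eB deletion animals. Its log2 difference was 0.28 ± 0.11 (SE; limma-trend, adjusted p = 0.850), and it is named because of its value. The highest members of the lists included Rfx3, an RFX factor of ciliogenesis, at 7141 normalized counts, and Spef2, of the central apparatus, at 6235. Ccdc40 and Ccdc39, which form the ruler along the doublets, stood at 3156 and 1917, and Drc3 and Drc1, of the nexin link, at 1751 and 1503. Their log2 differences lay between -0.02 and 0.09. The multiciliation regulators Mcidas and Gmnc were low, at 9.57 and 13.9 per kb, and of the 8 tested ciliated cell markers 1 was higher and 7 lower, with a median of -0.06.

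The summed level of all members, per 1000000 normalized counts, was 3021 ± 214 (SD, n = 6) in wildtype and 3114 ± 176 (SD, n = 6) in eB deletion animals. The difference of 93.4 was smaller than the spread within either group. The lowest animal was wildtype 2 at 2609, followed by eB deletion 5 at 2891 and eB deletion 6 at 2928, and the highest were eB deletion 3 at 3337 and eB deletion 2 at 3248. Without wildtype 2 the difference was 10.9, and without the 4 libraries above 0.1% of reads on Gm10800 it was -22.9. When reads on Gm10800 were taken out of the totals, wildtype 2 stood at 2932 and the groups at 3077 ± 98.1 and 3130 ± 183 (SD, n = 6 each). The summed normalized counts of the ciliated cell markers ranged from 17765 to 19832 in wildtype and from 16824 to 19581 in eB deletion animals. Those of the respiratory secretory markers ranged from 78724 to 173152 and from 89622 to 135017.

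Animals differed in their members together, within genotype. Deviations of log2(value + 1) from the group mean were correlated between all 2016 pairs of tested members over the 12 animals. The median Pearson r was 0.19 (quartiles -0.08 and 0.44), 67.9% of pairs were above 0 and 19.8% above 0.5. Over all pairs of the 19100 tested genes the median was 0.007. These correlations are a description, since the pairs share the same 12 libraries. In the 8 libraries below 0.1% of reads on Gm10800 the medians were 0.27 for the members and -0.0005 for all tested genes. The mean deviation of the members was highest in eB deletion 3, at 0.13, and lowest in eB deletion 5 and eB deletion 6, at -0.16 and -0.12. The ciliated cell markers deviated by 0.38, -0.04 and -0.20 in these 3 animals and the respiratory secretory markers by 0.46, -0.23 and -0.55, and the part of cell makeup in the shared deviation was not tested.

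**Figure D3:**
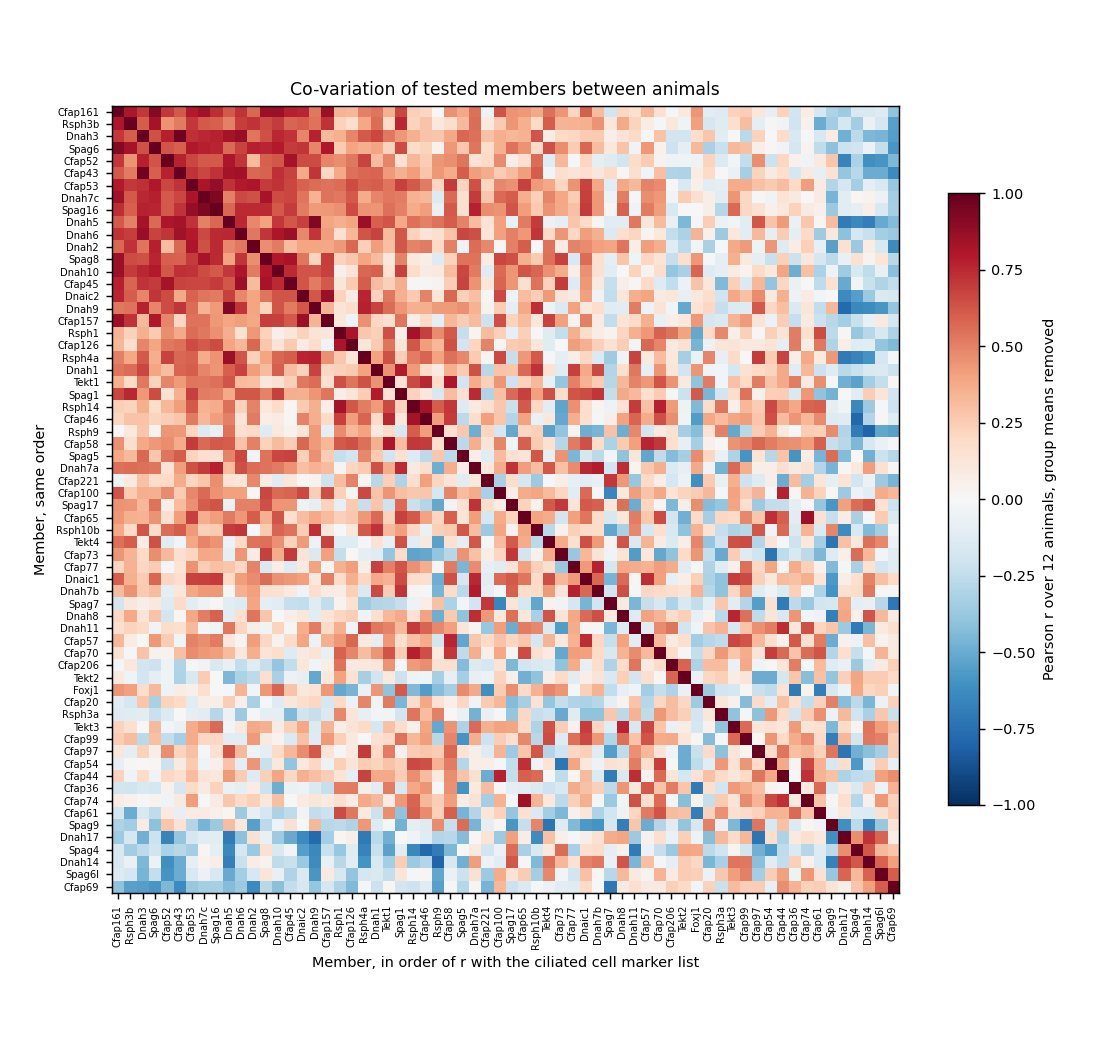
Pearson r between all pairs of the 64 tested members over 12 animals, with group means removed, from blue (-1) to red (1), both axes in order of r with the ciliated cell marker list. A red block at the upper left holds Cfap161, Rsph3b, Dnah3, Spag6 and other members of high r with those markers, and Cfap69, Spag6l, Dnah14, Spag4 and Dnah17 at the lower right run against it.

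Genes whose proteins work side by side were compared as 18 pairs, together with Foxj1 against each of the other 63 tested members, which gave 81 relations whose p-values were adjusted together. The 18 pairs were written down after correlations of these data had been seen, so their p-values are descriptions and not tests. One partner pair passed in both measures: Dnah5 and Dnah9, the heavy chains of the same outer arm, had r = 0.92 (permutation p = 0.00017, adjusted 0.0138) and rho = 0.77 (permutation p = 0.00083, adjusted 0.0336). Without wildtype 2 and eB deletion 6, the animals farthest from the median of Dnah5, r was 0.78, and in the 8 libraries below 0.1% of reads on Gm10800 it was 0.94. Pairs of members not among the 18 had a higher r over all animals: Cfap43 and Dnah3 (0.96) and Spag16 and Dnah7c (0.93). Dnah5 and Dnah11 had r = 0.52 (permutation p = 0.114, adjusted 0.495), rho = 0.57 (permutation p = 0.0670, adjusted 0.493), and r = 0.30 without the same animals. Spag6 and Spag16, both of the central apparatus, had r = 0.76 (permutation p = 0.00178, adjusted 0.0721) and rho = 0.87 (permutation p = 0.00022, adjusted 0.0178), and r = 0.64 without wildtype 4 and eB deletion 3. The spoke head genes Rsph1 and Rsph4a had r = 0.27 (permutation p = 0.379, adjusted 0.682) and rho = 0.39 (permutation p = 0.244, adjusted 0.576). The near copies Rsph3a and Rsph3b had r = -0.12 (permutation p = 0.708, adjusted 0.883) and rho = -0.03 (permutation p = 0.926, adjusted 0.987), and r turned to 0.43 without wildtype 3 and wildtype 4. The near copies Dnah7a and Dnah7b had r = 0.78 (permutation p = 0.00528, adjusted 0.143), rho = 0.72 (permutation p = 0.0125, adjusted 0.202), and 0.66 without eB deletion 6 and eB deletion 4. Dnah7a and Dnah7c had r = 0.70 (permutation p = 0.0255, adjusted 0.344), rho = 0.76 (permutation p = 0.00976, adjusted 0.198), and 0.80 without the same animals.

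No relation of Foxj1 to another member passed the adjustment. Its r with the 63 other tested members had a median of 0.02, with 33 above 0, and ran from -0.71 for Cfap36 to 0.61 for Spag1. Of the 63, 4 had an unadjusted permutation p under 0.05 for r, and the same count was not made over all tested genes. For Cfap36, r was -0.71 (permutation p = 0.0130, adjusted 0.263), rho was -0.69 (permutation p = 0.0225, adjusted 0.230), and r without eB deletion 2 and wildtype 3 was -0.74.

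Each tested member was also set against the mean deviation of 3 marker lists, which made 192 relations. None passed the adjustment (0 of 192). With the ciliated cell markers 53 of 64 members had r above 0, with a median of 0.29 and 19 unadjusted permutation p under 0.05. With the respiratory secretory markers 51 were above 0, with a median of 0.34 and 10 under 0.05. With the mature olfactory neuron markers 33 were above 0, with a median of 0.03 and 6 under 0.05. The same counts were not made over all tested genes, so they are not read as a trait of the members. The highest relation was that of Cfap161 with the ciliated cell markers, at r = 0.83 (permutation p = 0.00224, adjusted 0.118), rho = 0.78 (permutation p = 0.00620, adjusted 0.132), and 0.70 without eB deletion 3 and wildtype 3.

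Cfap69, the most abundant member, ran the other way. Its r with the ciliated cell markers was -0.72 (permutation p = 0.00582, adjusted 0.118), its rho -0.71 (permutation p = 0.0139, adjusted 0.167), and r was -0.83 without eB deletion 3 and wildtype 3. With the mature olfactory neuron markers its r was 0.33 (permutation p = 0.310, adjusted 0.564) and its rho 0.45 (permutation p = 0.168, adjusted 0.480). Cfap61, a protein of the calmodulin and spoke associated complex, had r = 0.78 with the neuron markers (permutation p = 0.00687, adjusted 0.118), rho = 0.79 (permutation p = 0.00559, adjusted 0.132), and 0.76 without wildtype 6 and eB deletion 2. The plot of r with both marker lists shows these members apart from the dynein heavy chains Dnah3, Dnah5 and Dnah6. Not all heavy chains lay with those: r with the ciliated cell markers was -0.41 for Dnah14 and -0.33 for Dnah17. Dnah11 had r = 0.19 with the ciliated cell markers and 0.50 with the neuron markers. Foxj1 had r = -0.72 with the neuron markers (permutation p = 0.0163, adjusted 0.164) and rho = -0.69 (permutation p = 0.0244, adjusted 0.213). Without wildtype 6 and eB deletion 2 this r of Foxj1 was -0.56. With the ciliated cell markers Foxj1 had r = 0.08 (permutation p = 0.808, adjusted 0.900), and -0.49 without eB deletion 3 and wildtype 3.

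**Figure D4:**
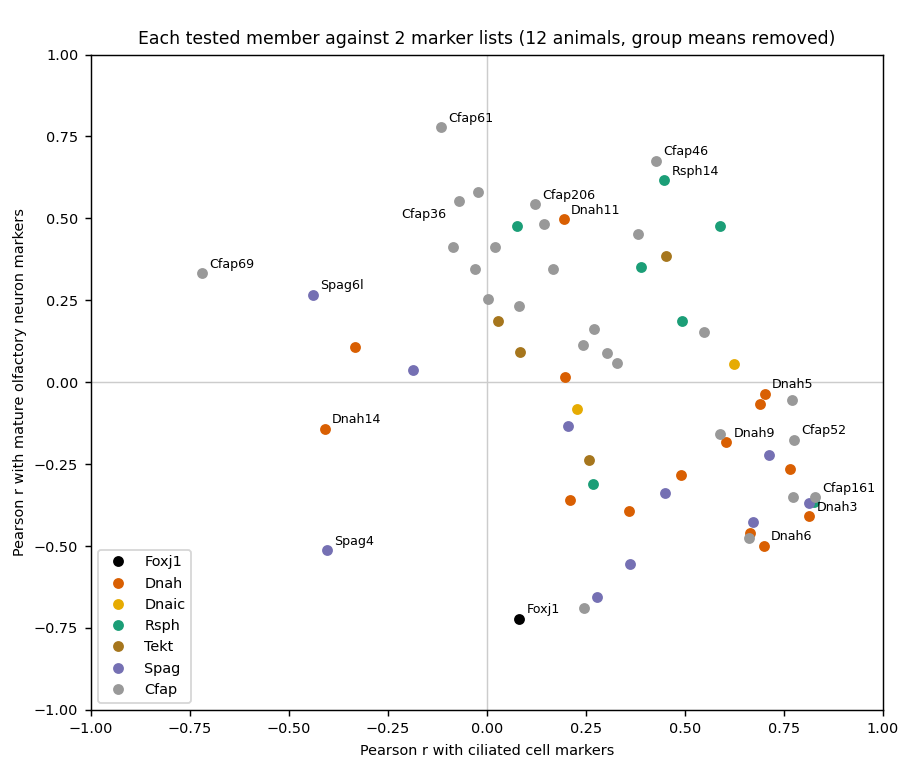
Pearson r of each tested member with the ciliated cell markers (x axis) and with the mature olfactory neuron markers (y axis), over 12 animals with group means removed, coloured by family. Cfap161 and Dnah3 lie at the right, Cfap69 at the left (-0.72) and Cfap61 at the top (0.78), and Foxj1 lies at 0.08 and -0.72.

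The genes outside the set whose deviations were most like the mean deviation of the members over the 12 animals were Odf3b, with r = 0.93, Dnali1, a light intermediate chain of inner arms, with 0.93, and Dlec1 with 0.91. Pih1h3b, T2, Casc1, Zbtb11os1, AC122037.2, RP23-438P19.11 and Atp6v1g3 followed, with r from 0.90 down to 0.87. They are named by their rank among all tested genes and carry no test.

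The members that varied most between animals were low ones. Dnah14 (chr1:181576559-181815774) had an SD of 1.22 on the log2 scale, the row named Spag6l 0.99 and Dnah17 0.71, against a median of 0.17. Dnah14 had 110 normalized counts in wildtype 2, 48.1 in eB deletion 4 and 23.9 in eB deletion 1, and between 5.81 and 18.3 in the other 9 animals. Dnah17 (chr11:118021723-118130634) had 141 in wildtype 2, 60.2 in eB deletion 4, and 20.3 to 46.5 in the other 10. The 3 highest animals of Dnah14 are in the order of their share of reads on Gm10800. Of the 8 tested members with a mean under 60 normalized counts, 5 were highest in wildtype 2. The same share over all tested genes this low was not counted, so it is not read as a trait of these members. Without the 4 libraries above 0.1% of reads on Gm10800 the SD was 0.48 for Dnah14 and 0.45 for Dnah17, but 1.06 for the row named Spag6l. Among untested members, Spag11b had 10.1 normalized counts in wildtype 2, 1.09 in eB deletion 4 and no read in the other 10 animals, Spag17os had 18.8 in wildtype 2 and at most 2.19 elsewhere, and Rsph6a had 16.4 in eB deletion 4, 14.4 in wildtype 2 and at most 6.26 elsewhere. The part of these libraries' make-up in such low values was not tested.

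**Figure D5:**
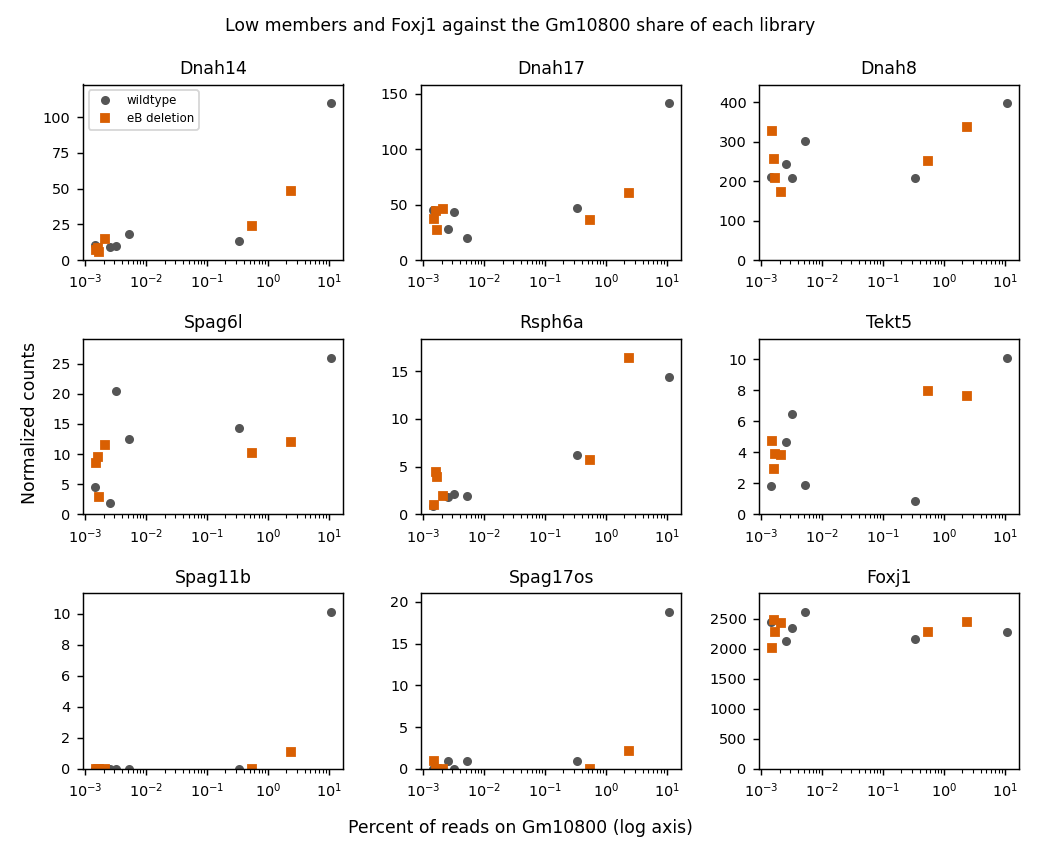
Normalized counts (y axis, from 0) of 8 low members and Foxj1 against the percent of reads on Gm10800 in each library (log x axis), wildtype as grey circles and eB deletion as orange squares. In the panel of Dnah14 the library at the right, wildtype 2, stands at 110 and eB deletion 4 at 48.1, while Foxj1 in its panel stays between 2018 and 2610.

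The members that varied least were Cfap20, Cfap206 and Spag9. Cfap20 (chr8:95420249-95434869) ranged from 1849 to 2065 normalized counts over all 12 animals, an SD of 0.06 on the log2 scale, with a log2 difference of 0.01 ± 0.04 (SE) and a 95% interval from 0.94-fold to 1.07-fold. Cfap206 had an SD of 0.07 and Spag9 of 0.10.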

How the data were processed

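Gene expression was measured in 12 libraries, 6 per group, and each column of values names its animal as the labels do. The unit is a signal that the authors deposited: reads per gene after division by a library factor. The values show this, since 100% of those above 0 equalled a whole number of the column's lowest value (tolerance 0.001), and whole reads were recovered. Per the submitters' processing notes, STAR 2.6.0, DESeq2 and GRCm38.p6 were used. Which tool counted reads, and with which strand setting, is unstated in the sources used here. The authors' deposited table also holds a log2 fold change, its standard error, a score (the test statistic) and a p-value and adjusted p-value per gene, made by the authors. In the authors' deposited table the lowest adjusted p among 64 members with one was 0.999. No log2 value of the authors' own comparison is printed here.

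With limma 3.58.1 in R 4.3.3, limma-trend was fitted to log2(value + 1) of genes with a value of 10 or more in 6 or more animals, without covariates, with Benjamini-Hochberg adjustment over all 19100 genes and a threshold of 0.05. Differences on this scale understate changes of low genes. edgeR 4.0.16 (quasi-likelihood) and DESeq2 1.42.0 on recovered reads, other pseudocounts, filters and scalings, a replicate block, leaving out each animal and leaving out libraries by their share of Gm10800 reads were alternatives. The limma procedure was tested on simulated data. Positions and exon lengths came from GENCODE M21, in which 44811 of 44930 genes matched by identifier. Promoters came from RefSeq (GRCm38.p6). Correlations used deviations from group means, with p-values from 100000 permutations within groups (smallest possible 1e-05), computed with scipy 1.17.1 and numpy 2.4.6. The labels name animals, but no litter or batch. Members, gene lists and the 18 partner pairs were chosen with earlier results of these data known. Genes were named by rule: Foxj1, the 3 highest per kb of each family, the 3 of smallest p in each direction, the 3 of largest and of smallest SD, near copies, the highest of each list and the 10 non-members most alike. Members outside this rule, named for their role in the axoneme or after their values were seen, are descriptions.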

Additional observations from a re-analysis of the deposited data

Results flagged for a closer look

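Each of 142 groups of 6 animals was examined for a single animal far from the others. By Dixon's criterion 19 values stood out, where chance gives about 1 in 20, or 7.1. The groups share the same libraries, and the flagged values include those of the untested members Rsph6a, Spag11b and Spag17os. The same share was not counted over all genes, so the 19 are not read as an excess belonging to the members. Wildtype 2 gave 6 of them: Dnah14 at 110, Dnah17 at 141, Spag11b at 10.1 and Spag17os at 18.8 normalized counts were high, Rsph10b at 73.6 was low, and the summed level of the members was low at 2609 per 1000000 normalized counts. This is the library with 11.02% of its reads on Gm10800. eB deletion 4, with 2.38%, gave 2 high values, Rsph6a at 16.4 and Spag11b at 1.09, the latter a single read against none in the rest of its group.

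In eB deletion 3, Cfap161 at 189, Dnah10 at 728 and Spag8 at 219 were high. In wildtype 3, Dnaic2 at 637 and Cfap157 at 209 were high, and in wildtype 4, Cfap70 at 691 was. In eB deletion 5, Tekt4 at 159, Cfap74 at 298 and Cfap99 at 78.5 were low. In eB deletion 2, Cfap46 at 1020 was high and Cfap73 at 20.9 was low.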

How the results depend on the processing

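No member was called under any alternative run. The count of all tested genes called was 0 in the reported fit and by edgeR, 8 by DESeq2, and 0 to 1 when each animal was left out in turn, with 1 without wildtype 6. Members with an unadjusted p under 0.05 numbered 0 as reported, 1 without a filter on low values, 2 without the 4 libraries above 0.1% of reads on Gm10800, and 0 to 4 when each animal was left out. The median correlation between members was 0.19 as reported, 0.16 without a filter, 0.25 with a filter of 50, 0.29 with TMM scaling, 0.24 and 0.27 without the 2 or 4 libraries highest in Gm10800, and 0.15 to 0.22 when each animal was left out. The cause of these shifts was not tested. The median log2 difference lay between -0.04 and 0.01 when each animal was left out and between -0.05 and -0.003 under the others. For the 32 named genes tested, all 699 values under alternatives moved by less than 1 SD between animals and none was called (lowest adjusted p 0.730). Leaving out 1 of 6 animals cannot shift a group mean by that much, so no stability is read from this bound for those fits. The sign changed in 54 of the 699 values, over 14 genes. In 11 of these the reported difference was within 0.05 of 0; the others were Dnah14, Spag6l and Dnah17, which turned from -0.35, -0.24 and -0.12 to 0.17, 0.02 and 0.21 without wildtype 2. Same-numbered animals did not deviate together (correlations -0.12 to 0.16, own number best in 1 of 6). The labels state no pairing, and a check of 6 pairs cannot show that there was none. With the replicate number as a block 0 members were called, 0 had an unadjusted p under 0.05, and the median correlation was 0.18. The low members Dnah14 and Spag6l had intervals wider than 2-fold, so smaller differences were not detectable there.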
